A study of Mus musculus with 6 samples.

Results

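The genes described here encode the proteasome and the MHC class I presentation pathway, which together make and display the peptides that a cell shows to CD8 T cells. They were taken as the probe sets whose single annotated gene symbol began with Psma to Psmg and a digit, began with H2-K, H2-D1, H2-L, H2-Q, H2-T or H2-M and a digit, or was Tap1, Tap2, Tapbp, B2m, Calr, Canx or Pdia3. This gave 68 genes with 92 probe sets among the 12422 probe sets of the array that were not controls, which named 8251 single genes. Of the 92, 58 carried Psm symbols, 23 carried H2 symbols and 11 belonged to the 7 transport and loading genes. The letters of the rule also took in 4 probe sets of genes with another function (H2-Ke6, Psmc3ip and Psme3ip1), which are counted but not read as part of the pathway. A further 12 probe sets named a proteasome or class I gene together with other genes and were not members. No probe set naming Psmb11, the catalytic subunit of the cortical thymoproteasome, or H2-L was analysed here.

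The arrays came from medullary thymic epithelial cells of B6/129 F2 mice, 3 to 5 weeks old. One group was wild type and the other had both copies of Aire disrupted, with no further detail of the allele in the sources used here. Each group held 3 arrays, each hybridised with RNA from 5 thymi of males and females combined, and this RNA was amplified in 2 rounds with T7 polymerase. The cells had been digested out of the thymus and sorted as negative for the blood cell marker CD45, positive for the epithelial antibody G8.8, intermediate for CDR1 and high for B7.1. Pools mix both sexes and an unfixed F2 background, so no value belongs to a single animal.

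The proteasome is a barrel of alpha and beta rings, called the 20S core, closed by caps that recognise and unfold ubiquitinated proteins. The catalytic beta subunits exist in a constitutive form (Psmb5, Psmb6, Psmb7) and in an immune form (Psmb8, Psmb9, Psmb10) that replaces it in cells of the immune system, in cells exposed to interferon gamma and in thymic epithelium of the medulla. The peptides are pumped into the endoplasmic reticulum by Tap1 and Tap2, loaded onto class I heavy chains with the help of Tapbp, Calr, Canx and Pdia3, and carried to the surface with B2m, the light chain. Medullary epithelial cells use this route to show peripheral tissue antigens to developing CD8 T cells.

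Sequence before the start sites of Psmb5, Psmb6, B2m, H2-D1, Psmb9 and Tap1 is shown from RefSeq, assembly GRCm38.p6. Of the 68 member genes, 55 had a start site entry, and 250 bases before the start were searched on both strands, a gene counting once if any of its starts matched. Psmb5 (chr14:54617996-54618245, minus strand) and Psmb6 (chr11:70525107-70525356, plus strand) are shown because both constitutive subunits with an entry held TGACNNNGC, a core of the antioxidant response element bound by Nfe2l1 and Nfe2l2, in capitals. B2m (chr2:122147437-122147686, plus strand) held a core of the interferon-stimulated response element (GAAA, any 2 bases, GAAA), in capitals. H2-D1 (chr17:35262844-35263093, plus strand) has CCAAT boxes in capitals, one in each orientation. Psmb9 and Tap1 are divergent neighbours, and the 225 bases between their starts (chr17:34187331-34187555, plus strand, Tap1 to the right) are given whole with the CCAAT box in capitals.
Psmb5: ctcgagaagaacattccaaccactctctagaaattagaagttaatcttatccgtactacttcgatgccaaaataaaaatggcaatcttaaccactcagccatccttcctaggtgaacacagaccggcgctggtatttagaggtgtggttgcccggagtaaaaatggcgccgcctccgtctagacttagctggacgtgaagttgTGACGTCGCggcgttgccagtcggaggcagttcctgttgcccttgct
Psmb6: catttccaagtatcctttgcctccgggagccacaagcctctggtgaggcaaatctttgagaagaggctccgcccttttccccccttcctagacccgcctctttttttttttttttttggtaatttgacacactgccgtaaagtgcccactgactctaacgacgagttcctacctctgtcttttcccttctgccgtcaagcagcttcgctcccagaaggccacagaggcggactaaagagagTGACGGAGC
B2m: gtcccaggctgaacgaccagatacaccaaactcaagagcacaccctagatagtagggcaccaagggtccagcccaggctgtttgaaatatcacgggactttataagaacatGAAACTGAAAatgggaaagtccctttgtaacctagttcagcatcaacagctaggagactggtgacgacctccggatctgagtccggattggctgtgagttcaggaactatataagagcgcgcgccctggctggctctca
H2-D1: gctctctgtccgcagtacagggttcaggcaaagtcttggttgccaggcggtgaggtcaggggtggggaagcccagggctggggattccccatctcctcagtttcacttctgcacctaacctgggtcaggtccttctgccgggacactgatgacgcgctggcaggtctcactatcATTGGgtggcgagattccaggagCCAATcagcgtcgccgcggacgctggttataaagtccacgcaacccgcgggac
Psmb9 and Tap1: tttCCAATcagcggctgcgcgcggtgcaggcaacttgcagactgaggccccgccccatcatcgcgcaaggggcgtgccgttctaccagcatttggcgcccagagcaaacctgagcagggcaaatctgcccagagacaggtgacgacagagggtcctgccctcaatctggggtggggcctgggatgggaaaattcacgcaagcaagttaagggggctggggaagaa

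Over the same length TGACNNNGC was present before 5 of 34 genes of the proteasome and its activators (14.7%) and before 11.5% of all 27025 genes with an entry. It lay before 5 of 15 class I, transport and loading genes (33.3%) and before 10 of 55 members (18.2%), so it was not confined to the proteasome. It was found for 0 of 3 immune subunits. The interferon-stimulated core was present for 4 of 55 members (7.27%), for 0 of 3 immune subunits and for 3.46% of all genes. TTCNNNGAA, the core of the gamma-activated site, was present for 3 of 55 (5.45%) and for 8.13% of all genes, and Psmb8 was one of the 3. CCAAT, in either orientation, lay before 14 of 15 class I, transport and loading genes (93.3%) and before 13 of 34 proteasome and activator genes (38.2%), against 37.5% of all genes. Class I genes are close copies of one another, so their promoters are not independent. These matches describe letters in a window and show no binding, and the motifs do not overlap one another in the runs above.

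The comparison of the genotypes asked whether the machinery of class I presentation depends on Aire, and it held no member that passed the test. Of the 92 probe sets, 81 (63 genes) were bright enough to be tested, and 0 of them were called higher and 0 lower in Aire-deficient cells by limma, with p-values adjusted over all 7768 tested probe sets and a threshold of 0.05. Over all probe sets tested 1.73% were called, 0.348% higher and 1.38% lower. Before adjustment 2 members lay higher (2.47%) and 4 lower (4.94%) at p under 0.05, against 6.44% and 7.81% of all probe sets tested and 14.3% for both together. The smallest adjusted p of any member was 0.177, for 1 of the 2 tested probe sets of Psmg3. The pools are separate samples of animals, and the p-values measure the spread between pools together with that of amplification and hybridisation.

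The median log2 difference, Aire-deficient minus wild type, was 0.17 over the 81 members and 0.05 over all probe sets tested. Differences lay above 0 for 53 members (65.4%), against 53.1% of all. They lay beyond 1 on the log2 scale, a doubling or halving, for 7 members (8.64%) and for 13.1% of all. For 38 members (46.9%) the 95% interval of the difference lay wholly within a 2-fold change either way, which held for 23% of all probe sets tested. For the other 43 the interval reached past it, so that a change of that size was not excluded. The groups did not overlap for 10 members higher in Aire-deficient cells (12.3%, against 10.4% of all) and 3 lower (3.7%, against 10.1%). On the values as deposited, without scaling between arrays, these counts were 20 of 80 (25%, against 13.7%) and 0 of 80 (against 7.34%).

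**Figure D1:**
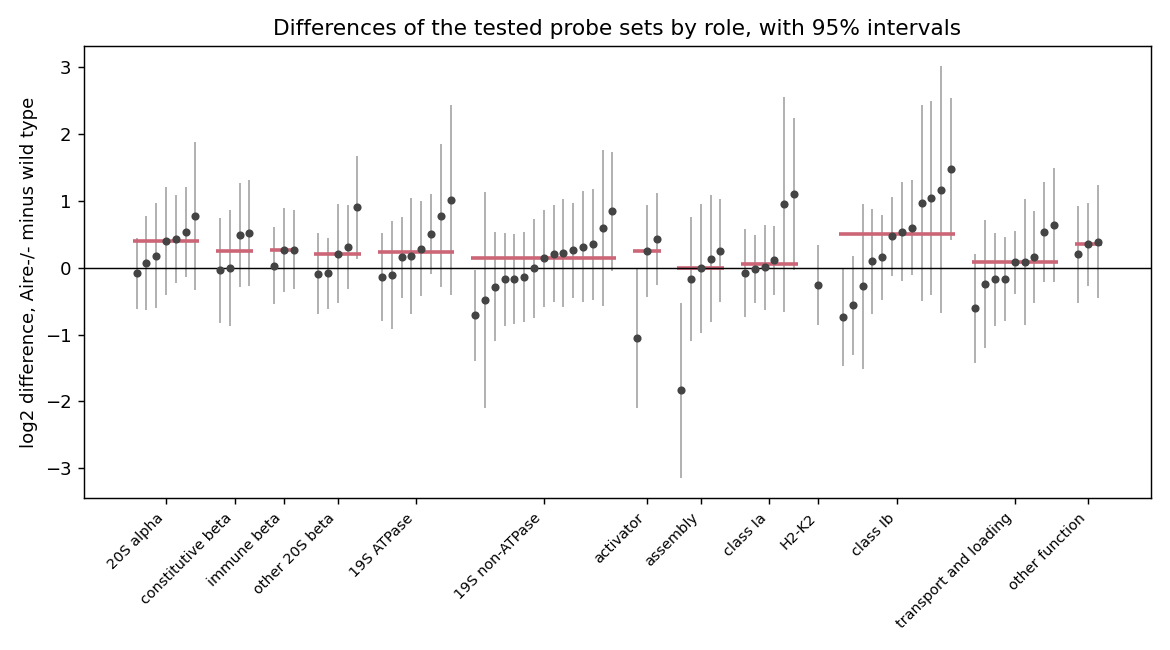
Log2 difference between Aire-deficient and wild-type arrays (y axis) for the 81 tested probe sets, grouped by role along the x axis. Points are estimates, grey bars their 95% intervals from the limma fit and red lines the group medians, and the medians lie between -0.26 for the single H2-K2 probe set and 0.50 for class Ib.

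Wild-type array 2 set much of the spread among the members. It was the lowest of the 6 arrays for 41 of the 81 tested members (50.6%) and for 27% of all probe sets tested, while the shares on the other 5 arrays ran from 4.94% to 14.8% of the members. Its median deviation from the 6-array mean was -0.32 (log2) over the members and 0.04 over all probe sets. That array also had the highest ratios of 3' to 5' signal, a sign of RNA quality or amplification, at 95.8 for beta-actin and 87.9 for Gapdh against 4.38 to 13.8 and 5.94 to 26.3 on the other arrays. Without it the median difference of the members was 0.05, against 0.03 over all probe sets. With the beta-actin ratio as a covariate the members' median was 0.03. The part of the ratio in single values was not otherwise tested.

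**Figure D2:**
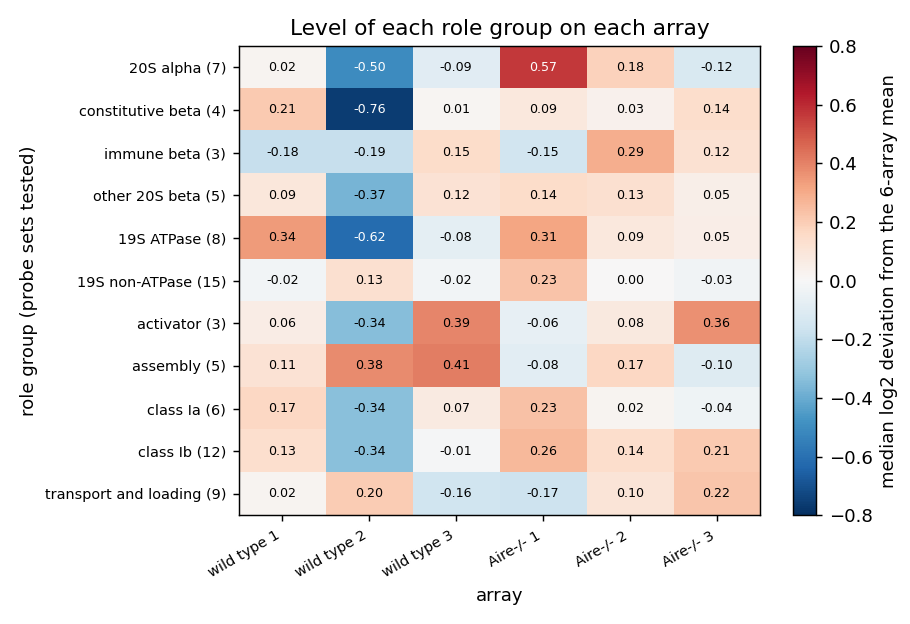
Median log2 deviation from the 6-array mean (colour and printed value) for each role group (rows, with the number of tested probe sets) on each array (columns). Wild-type array 2 reads -0.76 for the constitutive beta subunits, -0.62 for the 19S ATPases and -0.50 for the 20S alpha subunits. It reads -0.19 for the immune beta subunits, which read -0.18 on wild-type array 1. The assembly (0.38), transport and loading (0.20) and 19S non-ATPase (0.13) groups are positive on wild-type array 2.

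Markers of other cells differed between the groups in places. The granulocyte list, of which 8 of 9 genes were on the array, had 6 of 7 tested probe sets called lower, against 1.38% of all. Its summed signal was 292.8 to 833 in wild type and 66.6 to 97.8 in Aire-deficient cells. Among those called, Ly6g, Ltf and Ngp lay under the dim limit of 5.53 on every Aire-deficient array. They were tested through their wild-type signals alone, and their lack of overlap follows from the filter. The list of dendritic cells and macrophages (11 of 13 genes) summed to 327 to 482 and 280.3 to 311, with no probe set called. Its genes went both ways, with a median of -0.16. Cd14 lay lower, at 168, 207 and 92.2 in wild type and 68.3, 43.9 and 32.3 in Aire-deficient cells (difference -1.68). The tested probe sets of Cd68 and Ccr7 lay higher without overlap (1.65 and 1.22). The lists of thymocytes (15 of 16 genes, 130.4 to 222 and 126.9 to 232), B cells (6 of 7 genes, 77.9 to 136 and 128 to 147) and fibroblasts and endothelium (9 of 9 genes, 102 to 143 and 90.2 to 123.5) had none called either. The blood cell gene Ptprc reached at most 10.3 on any array. Its tested probe set gave 5.15, 7.22 and 5.33 against 7.93, 7.83 and 10.3, without overlap (difference 0.56). Blood cells carry immune subunits and class I, and the part of these cells in the members' values was not tested. The medullary list (12 of 13 genes) summed to 967 to 1051 and 963 to 1210 with none called and a median of 0.30. In it Krt8, Krt18, Cldn4 and Epcam were bright, but Krt8 and Krt18 also stand in the cortical list and enter both sums. The probe sets of Cd80, the gene of B7.1, differed by 1.40 and 0.73 and those of Krt19 by -0.98 and -1.51, and none passed. Epcam lay lower in every Aire-deficient array (-1.14, limma adjusted p = 0.118) and Krt18 was higher on average with overlap (1.04, limma adjusted p = 0.225), and neither passed. In contrast, Krt5 and Krt14, keratins of medullary epithelium, lay under the dim limit of 5.53 on all 6 arrays. The cortical list (7 of 10 genes) summed to 553 to 937 and 700.2 to 1497 with 1 probe set called higher, the chemokine gene Ccl25. The median difference of its 9 tested probe sets was -0.31, opposite in sign to the sums.

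The 3 immune catalytic subunits did not differ beyond their spread. Psmb8, the immune form of the chymotrypsin-like site, gave 282, 219 and 313 in wild type and 244, 284 and 294 in Aire-deficient cells, here and below in the order of arrays 1 to 3. The groups overlapped almost wholly, and the log2 difference was 0.03 ± 0.26 (SE, n = 3 each), with a 95% interval of -0.55 to 0.60 (limma adjusted p = 0.977). Psmb9, the immune form of the caspase-like site, measured 116, 115 and 128 in wild type and 145, 167 and 123 in Aire-deficient cells. Only Aire-deficient array 3 fell among the wild-type values, and the difference was 0.27 ± 0.27 (interval -0.33 to 0.86, limma adjusted p = 0.71). Psmb10, the immune form of the trypsin-like site, gave 203, 251 and 302 and then 226, 334 and 353. Its difference was 0.26 ± 0.29 (interval -0.37 to 0.89, limma adjusted p = 0.738). For each of the 3 subunits the interval stayed within a 2-fold change in this fit. On the values as deposited the differences of Psmb8, Psmb9 and Psmb10 were 0.37, 0.57 and 0.64, for which no interval is given here.

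Their constitutive counterparts showed differences of the same order with more scatter. The brighter probe set of Psmb5 gave 26.3, 13.8 and 23.4 in wild type and 32.2, 32 and 22.9 in Aire-deficient cells, with the low value on wild-type array 2 (difference 0.49 ± 0.35, limma adjusted p = 0.578). Its dimmer probe set was flat at 7 to 8.08 and 6.2 to 9.38 (difference -0.01 ± 0.39). Psmb6 measured 40.8, 18.2 and 28.9 against 36.5, 37 and 46.3, again lowest on wild-type array 2 (difference 0.51 ± 0.36, limma adjusted p = 0.565). Without that array the brighter Psmb5 and Psmb6 both differed by 0.21. Psmb7 gave 88.1, 38.5 and 76.5 and 64.3, 59.3 and 62.5, so that wild-type arrays 1 and 3 lay above and wild-type array 2 below every Aire-deficient array. The difference of Psmb7 was -0.04 ± 0.36 (interval -0.82 to 0.74, limma adjusted p = 0.973), and it was 0.21 on the values as deposited. Its only probe set is of a design that binds several family members, so it may not read Psmb7 alone.

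**Figure D3:**
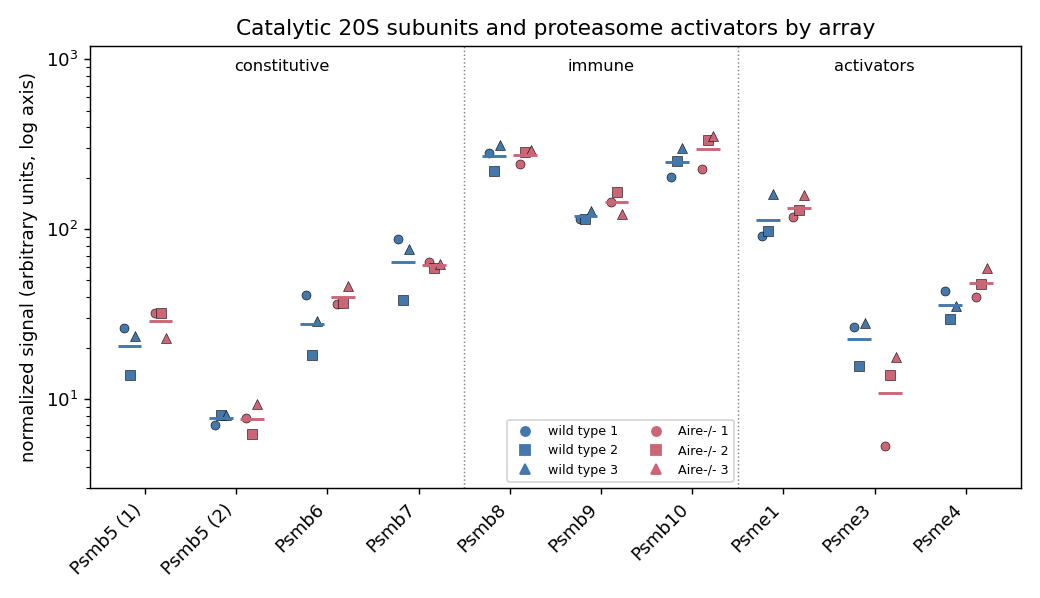
Normalized signal on a log axis (arbitrary units) of the catalytic subunits and activators, with 1 point per array and bars at the geometric mean of 3 arrays per group. Numbers in parentheses rank probe sets of the same gene by brightness. The blue and red points overlap for Psmb8, Psmb9 and Psmb10, although 2 of the 3 red points of Psmb9 and of Psmb10 lie above all blue ones. For Psmb5, Psmb6 and Psmb7 the blue square of wild-type array 2 stands apart from the other blue points in all but the dimmer probe set of Psmb5.

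The balance of immune over constitutive subunits was read as the mean log2 signal of the former 3 genes minus that of the latter 3 on each array. Probe sets have different affinities, so its level has no meaning and its change between arrays is what can be compared. It read 2.36, 3.25 and 2.88 in wild type against 2.58, 3.00 and 2.75 in Aire-deficient cells, and the Aire-deficient values all lay inside the wild-type range. The means were 2.83 (SD 0.45, n = 3) and 2.78 (SD 0.21, n = 3), a difference of -0.05. On the values as deposited the difference was 0.13, and without wild-type array 2 it was 0.16, so its sign depended on both choices. The constitutive mean on wild-type array 2 was 4.28, against 4.97 to 5.19 on the other 5 arrays, while the immune mean there (7.53) was near that of wild-type array 1 (7.55).

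Taken pair by pair, the change between groups was -0.22 for Psmb8 over Psmb5, -0.25 for Psmb9 over Psmb6 and 0.30 for Psmb10 over Psmb7. The last pair read 1.21, 2.71 and 1.98 on the wild-type arrays (SD 0.75) and 1.81, 2.49 and 2.50 on the Aire-deficient arrays (SD 0.40). Without wild-type array 2 the 3 changes were -0.24, 0.03 and 0.67. Each is given as a description, since the pairs were read from the members' own values.

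The alpha subunits, which form the outer rings of the core and its gate, had a median of 0.40 over 7 probe sets, 6 of them above 0. Psma1 gave 53.1, 13.7 and 39.9 in wild type and 80.8, 47.9 and 37.4 in Aire-deficient cells, and the groups overlapped (difference 0.77 ± 0.50, limma adjusted p = 0.532). Psma2 gave 83.2, 51.5 and 74 and 114, 93 and 89.4, without overlap (difference 0.53 ± 0.30, limma adjusted p = 0.48). Psma4 measured 98.4, 83.7 and 110.4 and 166, 129 and 103, with Aire-deficient array 3 inside the wild-type range (difference 0.43 ± 0.30). The other 4 alpha subunits differed by -0.09 to 0.40. Wild-type array 2 was lowest for 5 of the 7, and without it the median was 0.19, Psma1 0.19 and Psma2 0.33.

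Psmb2, a structural subunit of the beta ring, had the lowest unadjusted p among the core subunits. Its signals were 32.2, 26.5 and 56.1 in wild type and 62.9, 80 and 62.4 in Aire-deficient cells, 1.87-fold higher with no overlap. The difference was 0.90 ± 0.35 (interval 0.13 to 1.67), and the limma adjusted p = 0.268 missed the threshold. Without wild-type array 2 it was 0.68 ± 0.32. The other structural beta subunits were closer to 0. The dimmer tested probe set of Psmb1 measured 84.7, 80.5 and 121 against 115, 114 and 119, and Psmb3 105, 61.2 and 99 against 112, 121 and 72.3. Their groups overlapped, with differences of 0.31 and 0.21, and the brighter Psmb1 and the tested Psmb4 probe sets both gave -0.09.

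In the 19S cap, which unfolds substrates and feeds them to the core, the 6 ATPase genes had 8 tested probe sets and a median of 0.23, and wild-type array 2 was lowest for 7 of them. Psmc2 gave 219, 147 and 195 in wild type and 282, 278 and 231 in Aire-deficient cells, without overlap (difference 0.51 ± 0.27, limma adjusted p = 0.439). Psmc4 was dim at 8.26, 3.32 and 4.45 against 9.53, 7.15 and 8.97 (difference 0.78 ± 0.48, or 0.49 without wild-type array 2). The widest difference in the group, 1.01 ± 0.64, came from 1 of 3 tested Psmc3 probe sets, with 27.9, 3.52 and 16.9 in wild type and 30.4, 25.8 and 17.2 in Aire-deficient cells. Without wild-type array 2 it was 0.13, the other 2 Psmc3 probe sets gave -0.14 and 0.28, and with the beta-actin covariate it was -0.022. Without wild-type array 2 the median of the ATPases was 0.08.

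The Psmd genes, grouped here as non-ATPase subunits, include ubiquitin receptors and the deubiquitinase Psmd14, but also chaperones such as Psmd10. They had a median of 0.14 over 15 tested probe sets of 13 genes, with 8 above 0. Psmd10, also known as the chaperone gankyrin, gave 26.2, 10.5 and 18 and 41.4, 22.4 and 30.6, with Aire-deficient array 2 below wild-type array 1 (difference 0.84 ± 0.40, limma adjusted p = 0.378). It was 0.49 without wild-type array 2. Psmd6 measured 38.8, 8.18 and 30.9 against 42, 26.7 and 30.2, a difference of 0.60 ± 0.53 that was -0.098 without wild-type array 2. Psmd11 had 3 tested probe sets that disagreed. The brightest gave 116, 167 and 99.9 in wild type and 64.1, 78.6 and 87.7 in Aire-deficient cells, 1.64-fold lower with no overlap (difference -0.71 ± 0.31, interval -1.39 to -0.03, limma adjusted p = 0.325). The other 2 gave -0.49 and 0.26 with overlapping groups. The brightest differed by -0.50 without wild-type array 2 and by -0.42 on the values as deposited, where 0 members lay lower without overlap.

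The activators open the core in place of the 19S cap. Psme1, the alpha chain of the interferon-inducible activator PA28, measured 91.3, 97.2 and 161 in wild type and 118, 129.5 and 158 in Aire-deficient cells (difference 0.25 ± 0.31, limma adjusted p = 0.77). Its partner Psme2 was named on this array only together with Psme2b. Psme3, the nuclear PA28 gamma, gave 26.6, 15.7 and 28.1 and then 5.32, 13.9 and 17.6, with the lowest value on Aire-deficient array 1 and Aire-deficient array 3 above wild-type array 2. It was 2.08-fold lower (difference -1.06 ± 0.47, interval -2.09 to -0.02), which did not pass (limma adjusted p = 0.34). The value on Aire-deficient array 1 lay under the dim limit of 5.53. The difference was -1.04 with a floor at the 40th percentile and -0.49 with a pseudocount of 16. Psme4, which encodes PA200, measured 43.3, 29.8 and 35.6 against 39.7, 47.5 and 59.2 (difference 0.43 ± 0.31).

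Among the assembly chaperones the dimmer probe set of Psmg3 had the smallest adjusted p of the members. Its signals were 7.73, 12.8 and 5.87 in wild type and 1.9, 3.42 and 1.98 in Aire-deficient cells, with no overlap. All 3 Aire-deficient arrays lay under the dim limit of 5.53 and all 3 wild-type arrays above it. The probe set was thus tested through its wild-type signals alone, and the lack of overlap follows from the filter. The wild-type geometric mean was 1.51-fold that limit. The fitted difference was -1.83 ± 0.59 (limma adjusted p = 0.177), and its size depends on how dim signals are handled, at -0.59 with a floor at the 40th percentile and -0.42 with a pseudocount of 16. The brighter Psmg3 probe set did not show it, at 18.1, 21.8 and 14.3 against 21.4, 21.8 and 8.48 (difference -0.17 ± 0.42). Psmg1, a chaperone of the alpha ring, gave 20.7, 14.3 and 30.9 and 24.3, 26.8 and 23.8 (difference 0.25 ± 0.35). Psmg2 and Psmg4 differed by 0.13 and -0.01.

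The classical class I heavy chains had a median of 0.06 over 6 tested probe sets, 4 of them above 0. Of the 21 tested H2 probe sets, 10 were of a design that binds several family members, and class I genes are close relatives, so a symbol here may stand for several heavy chains. The brightest H2-K1 probe set gave 1879.6, 1222 and 1796 in wild type and 1796, 1541 and 1442 in Aire-deficient cells, a difference of -0.02 ± 0.23 (interval -0.52 to 0.49, limma adjusted p = 0.983). The brightest H2-D1 probe set gave 1171, 827 and 1211 against 1253, 1003 and 1171 (difference 0.11 ± 0.23, interval -0.40 to 0.62, limma adjusted p = 0.875). In both the groups overlapped and the interval excluded a 2-fold change.

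Other probe sets of the same genes behaved differently on 1 array. The middle H2-D1 probe set read 1079, 89.4 and 645 in wild type and 1171, 658 and 578 in Aire-deficient cells. Wild-type array 2 was thus far below the other 5, and the difference of 0.95 ± 0.73 was -0.13 without it. The dimmest H2-D1 probe set was highest on that array, at 207, 300.3 and 166 against 234, 214 and 176 (difference -0.08 ± 0.30, or 0.23 on the values as deposited). For H2-K1 the middle probe set gave 266, 179 and 219 and 272, 224 and 173 (difference 0.00 ± 0.29). The dimmest gave 2.35, 5.75 and 4.97 and then 7.17, 11.1 and 8.23, without overlap, but only 1 of the 3 wild-type arrays was above the dim limit. Its difference of 1.09 ± 0.51 (limma adjusted p = 0.369) was 0.63 with the floor at the 40th percentile and 0.29 with a pseudocount of 16. H2-K2 measured 1185, 658 and 831 against 857, 632 and 694 (difference -0.26 ± 0.27, or 0.13 on the values as deposited).

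Class Ib genes, which present to unconventional T cells or act in fetal, gut or germ line tissues, had a median of 0.50 over 12 tested probe sets of 9 genes, with 9 above 0. It was 0.16 without wild-type array 2, 0.15 with 1 probe set per gene and 0.25 with a pseudocount of 16. H2-M10.1, of a family known from vomeronasal neurons, had 3 tested probe sets. The one with the largest difference gave 13.2, 3.32 and 8.48 in wild type and 17.3, 22 and 20.9 in Aire-deficient cells, 2.78-fold higher with no overlap (difference 1.47 ± 0.48, interval 0.41 to 2.54, limma adjusted p = 0.183). Without wild-type array 2, where its signal was under the dim limit, the difference was 0.92, and with a pseudocount of 16 it was 0.59. With the replicate number of the labels as a block its adjusted p was 0.0726, still short of the threshold. The other 2 gave 12, 13 and 10.4 against 19.8, 14.8 and 19.1, and 13.1, 1.4 and 11.5 against 12.1, 13.1 and 12.7. The first of these did not overlap, and in the second wild-type array 2 alone stood low, with differences of 0.60 and 0.96.

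H2-Q4 and H2-Q5, heavy chains of the Qa region, had wide intervals, and their differences depended on wild-type array 2. H2-Q4 read 392, 23.7 and 163 in wild type and 512, 218 and 153 in Aire-deficient cells (difference 1.16 ± 0.83, interval -0.68 to 3.00). H2-Q5 read 74, 9 and 27.9 against 86, 58.6 and 32.3 (difference 1.04 ± 0.66). On both, array 1 was the highest and array 3 the lowest within the Aire-deficient group. Without wild-type array 2 the differences were 0.03 ± 0.52 and 0.26 ± 0.50. Singled out after their values were seen, the brighter H2-M3 probe set, whose product presents formylated peptides, gave 123, 104 and 119 and 143, 162 and 172 without overlap (difference 0.46 ± 0.26, limma adjusted p = 0.475). H2-Q10, known as a secreted liver product, gave 48.3, 45.2 and 37.7 and 25.8, 35.5 and 19.4, also without overlap (difference -0.74 ± 0.33, limma adjusted p = 0.342). On the values as deposited 0 members lay lower without overlap.

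**Figure D4:**
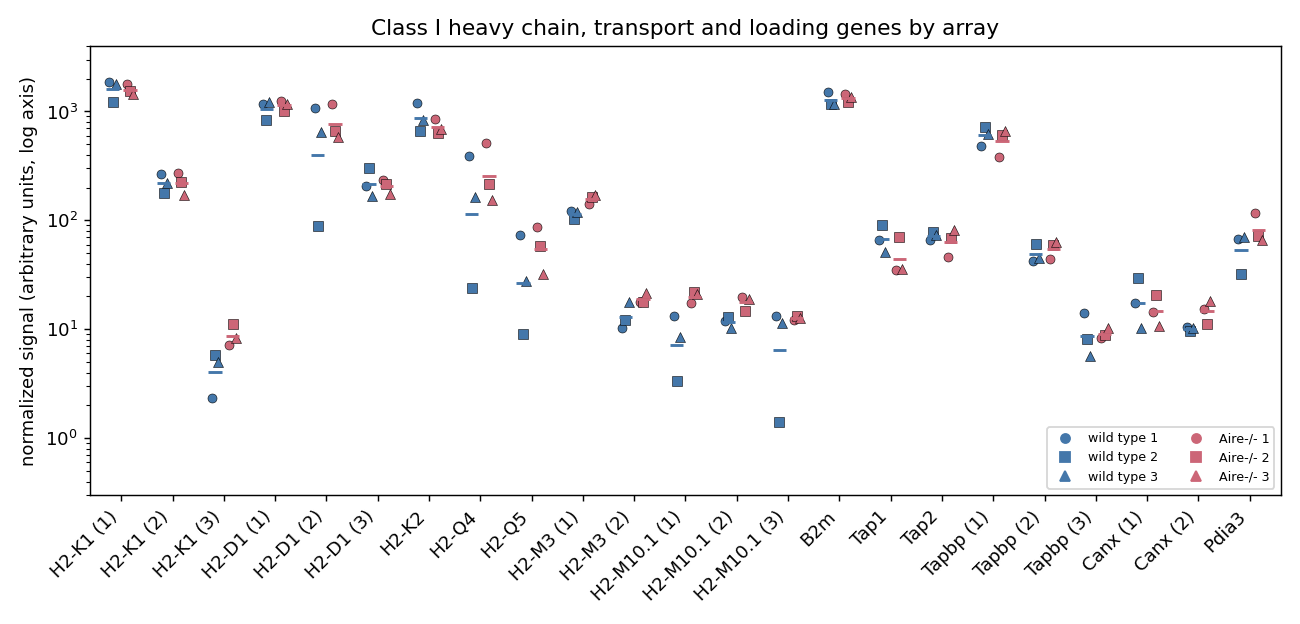
Normalized signal on a log axis (arbitrary units) of class I heavy chain, transport and loading genes, with 1 point per array and bars at the geometric mean of 3 arrays per group. Numbers in parentheses rank probe sets of a gene by brightness in Aire-deficient cells. The blue square of wild-type array 2 lies far below the other points for the second H2-D1 probe set, H2-Q4 and H2-Q5 and close to them for the first H2-K1 probe set and B2m.

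B2m, the light chain shared by all class I molecules, had the smallest SE of the named members. It gave 1499, 1171 and 1171 in wild type and 1442, 1222 and 1371 in Aire-deficient cells, with overlapping groups (difference 0.08 ± 0.21, interval -0.39 to 0.54, limma adjusted p = 0.907). Tap1, the first chain of the peptide pump, measured 66.1, 91.2 and 51.5 against 35.2, 69.7 and 35.6. Aire-deficient arrays 1 and 3 lay under all wild-type arrays and array 2 among them (difference -0.61 ± 0.37, interval -1.43 to 0.21, limma adjusted p = 0.502). Tap2, the second chain, gave 65.8, 77.8 and 72.9 and 46.1, 69.3 and 80.8 (difference -0.18 ± 0.31, or 0.09 on the values as deposited).

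On chromosome 17 of the RefSeq assembly Psmb9, Tap1, Psmb8 and Tap2 are 4 consecutive genes. Their differences were 0.27, -0.61, 0.03 and -0.18, and none passed. Psmb9 and Tap1, which face each other across the 225 bases printed above, thus had point estimates of opposite sign whose intervals overlap (-0.33 to 0.86 and -1.43 to 0.21).

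Tapbp, or tapasin, bridges the pump and the heavy chain. Its brightest probe set gave 481, 727 and 625 in wild type and 379, 611 and 667 in Aire-deficient cells (difference -0.17 ± 0.29, or 0.27 on the values as deposited). The other 2 tested probe sets gave 0.16 and 0.08, all with overlapping groups. Pdia3, the oxidoreductase of the loading complex, measured 67.2, 32 and 69.8 against 117, 71.6 and 66.6 (difference 0.63 ± 0.39, limma adjusted p = 0.504), or 0.27 without wild-type array 2. The chaperone Canx disagreed between its probe sets. The brighter gave 17.4, 29.6 and 10.4 against 14.3, 20.8 and 10.8 (difference -0.24 ± 0.43), and the dimmer gave 10.5, 9.55 and 10.4 against 15.5, 11.2 and 18 without overlap (difference 0.53 ± 0.34). Calr, its soluble relative, had a single probe set that stayed under the dim limit on all 6 arrays, at 0.4 to 3.88, and was not tested.

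In all, 11 members were not tested because they were too dim. Besides Calr, Psmd2 and the genes H2-M1, H2-T24 and Psmc3ip had no tested probe set, and the other 6 were further probe sets of Psmb1, Psmb4, Psmc5, Psme1 and Tap1. Among the probe sets of another function, Psme3ip1 gave 56.5, 49.7 and 61.5 against 65.2, 70.3 and 77.3 (difference 0.35 ± 0.28), and those of H2-Ke6, a steroid dehydrogenase, gave 0.39 and 0.20.

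Genes of the wider pathway that the rule does not hold were read from 5 lists of 77 symbols, of which 52 were on the array with 59 tested probe sets of 45 genes. None was called in the limma fit. At an unadjusted p under 0.05, 7 lay higher and 2 lower, against 6.44% and 7.81% of all probe sets tested, and the median was 0.27, against 0.05 over all probe sets tested. The medians were 0.32 for 18 probe sets of folding in the endoplasmic reticulum, 0.34 for 16 of class I regulators, 0.03 for 14 of the ubiquitin system, 0.06 for 6 of cytosolic and trimming peptidases and -0.59 for 5 of class I-like genes. The smallest adjusted p of the lists belonged to Sec61b, a subunit of the protein channel of the endoplasmic reticulum. It measured 29.9, 21.4 and 37.4 in wild type and 71.9, 86.3 and 55.9 in Aire-deficient cells, 2.44-fold higher without overlap (difference 1.29 ± 0.33, limma adjusted p = 0.0893).

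With the replicate number as a block 3 of the 59 tested probe sets of these lists passed, all higher, while 5.3% of all probe sets tested were called in that fit. They were Sec61b (adjusted p = 0.036) and 2 probe sets of Pdia6, an oxidoreductase related to Pdia3 (0.0291 and 0.0436). For all 3 the lowest of the 6 arrays was wild-type array 2, and no values without it are given here. The Pdia6 probe sets read 9.13, 1.68 and 2.27 against 25.2, 16.6 and 7.2, and 25.9, 4.45 and 11.2 against 44.7, 21.2 and 23.7, with overlap between groups. On wild-type arrays 2 and 3 the first of them was under the dim limit. The remaining Pdia6 probe set had a difference of 0.10 in that fit. No member passed there, with 0 of 81 higher (1.93% of all) and 0 lower (3.37% of all).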

How the data were processed

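The authors deposited 1 signal intensity per probe set and array on a linear scale, with software, background correction and scaling not given in the sources used here. Per the labels, RNA was amplified in 2 rounds before hybridisation, which favours 3' ends. Of 12488 probe sets, 66 controls were left out. In the platform annotation 10833 of the rest had 1 gene, 396 several and 1193 none. Quantile normalization was followed by a floor at the pooled 20th percentile (1.8) and log2. Probe sets above the pooled 40th percentile (5.53, the dim limit) on at least 3 of 6 arrays were tested, 7768 in all. The test was limma 3.58.1 (lmFit, then eBayes with a variance trend; R 4.3.3), 2-sided, with Benjamini-Hochberg adjustment over all probe sets tested and a threshold of 0.05. The reported fit had no block. Levels of groups are geometric means. Errors are log2 values.

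As a check of pairing, the deviations of same-numbered arrays had correlations of 0.37, 0.20 and 0.19, each above 0.1, and those of other pairs -0.25 to 0.07. The arrays were therefore treated as paired by number in the blocked fit. This rests on the correlations alone, as no label explains the numbering. Named members were all called members, the catalytic, activator, classical class I and loading genes whatever their values, and the 3 largest differences in each other role group. Members and lists were chosen with earlier results of these data known. Alternatives changed the scaling, the floor, the filter and the variance model, or used array weights, 1 probe set per gene, the block, a beta-actin covariate or 1 array fewer. The fit was tested on simulated data with independent normal noise and no effect shared across an array. That test does not cover differences in quality between arrays. Sequences and gene order came from RefSeq GRCm38.p6, which matched 68 of 68 member genes by symbol. Plots used matplotlib 3.10.9 (Python 3.11.15).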

Additional observations from a re-analysis of the deposited data

How the results depend on the processing

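No member was called in any of the 18 alternative fits, and no named member crossed the threshold. Over all probe sets the fit of the report called 27 higher and 107 lower. These counts were 71 and 102 on the values as deposited, 55 and 97 after median scaling, 57 and 156 with a pseudocount of 16 in place of the floor, 6 and 10 without a filter, 72 and 166 with array weights, 150 and 262 with the replicate block, and 2 to 16 and 25 to 79 with 1 array left out. The replicate block added the 3 higher calls in the related lists and changed no call of a member. Scaling moved the median of all probe sets from 0.05 to 0.17 on the values as deposited and after median scaling. In both, the members' median moved further, from 0.17 to 0.37.

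On the values as deposited the members' median was 0.37, and that of 20S alpha 0.66, activators 0.56, H2-K2 0.13, immune beta 0.57, other 20S beta 0.50 and the related lists 0.41. No overlap was seen for 20 members higher and 0 lower. After median scaling the same medians were 0.37, 0.67, 0.56, 0.13, 0.57, 0.50 and 0.39, with 16 higher and 1 lower. With the beta-actin covariate the members' median was 0.030, 20S alpha 0.12, assembly -0.18, other 20S beta -0.12 and related lists 0.17. The related median was 0.17 with a floor at the 40th percentile, 0.11 with the pseudocount, 0.19 with a filter at the 60th percentile and 0.19 with array weights. With 1 probe set per gene 6 members lay higher without overlap. The cause was not tested.

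The signs of some differences, none of them called, turned. On the values as deposited these were H2-D1 (dimmest, 0.23), H2-K1 (brightest, 0.23), H2-K2 (0.13), Psmb7 (0.21), Tap2 (0.093) and Tapbp (brightest, 0.27). After median scaling they were 0.23, 0.23, 0.13, 0.21, 0.095 and 0.27. The pseudocount turned the dimmer Psmb5 to 0.0012. Array weights turned the brighter Canx (0.21), H2-D1 (brightest -0.058, dimmest 0.096), middle H2-K1 (-0.067), Psmb8 (-0.049) and the brighter Psmg3 (0.024). The beta-actin covariate turned small and large differences alike, including 1.16 for H2-Q4, 1.04 for H2-Q5, 1.01 for 1 Psmc3 probe set, 0.95 for the middle H2-D1 and 0.60 for Psmd6 in the reported fit. Its values were B2m (-0.015), H2-D1 (middle -0.29, brightest -0.059, dimmest 0.070), middle H2-K1 (-0.24), the brighter H2-Ke6 (-0.035), H2-Q4 (-0.26), H2-Q5 (-0.026), Psmb3 (-0.13), the dimmer Psmb5 (0.096), Psmb8 (-0.075), 1 Psmc3 probe set (-0.022), Psmd6 (-0.16) and Tapbp (brightest 0.083, dimmest -0.051).

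Leaving out 1 array gave 13 to 21 members higher and 3 to 7 lower without overlap, with fewer arrays to separate. Without wild-type array 2 they were 13 (16%) and 7 (8.64%), against 15.6% and 13.9% of all probe sets. Medians ran from 0.18 to 0.60 for 20S alpha, -0.038 to 0.31 for other 20S beta (below 0 without wild-type array 2), -0.33 to 0.036 for assembly and 0.12 to 0.31 for the related lists. The change in the immune over constitutive balance ran from -0.29 to 0.16. Differences ran from -0.21 to 0.099 for the brightest H2-K1, -0.15 to 0.17 for the middle H2-K1, -0.41 to 0.19 for Psmb7, -0.62 to 0.13 for the brighter Canx, -0.13 to 1.67, -0.065 to 0.21 and -0.27 to 0.15 for the middle, brightest and dimmest H2-D1, -0.038 to 0.44 for Psmb3, -0.15 to 0.14 for the dimmer Psmb5, -0.12 to 0.14 for Psmb8, -0.098 to 1.02 for Psmd6, -0.021 to 0.54 for Psmg1, -0.22 to 0.43 and -0.33 to 0.082 for the dimmest and brightest Tapbp, -0.35 to 0.056 for Tap2 and -0.40 to 0.28 for the brighter Psmg3. The number of arrays limits the precision, and differences of dim probe sets shrank with the higher floor and with the pseudocount, to -0.59 and -0.42 from -1.83 for the dimmer Psmg3 and to 0.63 and 0.29 from 1.09 for the dimmest H2-K1.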

Other observations

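Probe sets that name several genes were outside the comparison. The brighter of the 2 for Psme2 and Psme2b, which would report the beta chain of PA28, gave 266, 64.7 and 198 in wild type and 251, 167 and 234 in Aire-deficient cells, with wild-type array 2 lowest. One shared by H2-Q9, H2-Q7 and H2-Q5 gave 1118, 887 and 1185 against 985, 1171 and 1042. One shared by H2-T-ps and H2-T23, the latter encoding Qa-1, gave 198, 209 and 178 against 144, 179.9 and 183. Both probe sets of H2-T9, H2-T22 and H2-T10 lay lower on average in Aire-deficient cells, at 256 and 196 and at 172 and 136 (geometric means), with overlapping groups.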
